A study of Canis lupus familiaris with 6 samples.

Results

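The comparison described here sets the second podoplanin knockout line of each of 2 canine melanoma cell lines, CMM2 and CMM12, against the first knockout line of the same parent. It uses the 4 knockout libraries of the 6 in the series, and 12133 of the 30951 listed genes, those with at least 10 counts in a knockout library. The question is how far knockout lines made from the same parental line differ from each other, and whether the differences recur in both parents. RNA-seq libraries were made from CMM2 and CMM12 cells of the labelled genotype WT (the controls) and from cells labelled podoplanin KO#1 and podoplanin KO#2, called KO 1 and KO 2 below, with 1 library for each. All 4 knockout libraries carry the same labelled genotype, podoplanin KO, and the controls serve only as a reference. The labels do not say whether a knockout line is a single clone, which guide made it, whether number 1 or 2 means the same thing in both parents, or whether the libraries came from separate cultures. The p-values below therefore measure only the spread between these libraries.

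Podoplanin, encoded by PDPN, is a mucin-type membrane glycoprotein that binds the platelet receptor CLEC-2 and links the membrane to actin through ezrin and moesin. It is known for its part in the movement and invasion of tumour cells. Cells selected after gene editing grow from few founders, so that knockout lines of the same gene can carry differences that the parental population already held or that arose afterwards. Collagens are secreted matrix proteins, folded with the help of the chaperone SERPINH1 and cut by matrix proteases, whose activity is held back by inhibitors such as TIMP1.

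The libraries held 9732925 to 11807824 counts, so 3 counts corresponded to 0.259 to 0.294 CPM (counts scaled to a common library size, adjusted here between libraries by the trimmed mean of M values). MITF, the master regulator of the melanocyte lineage, had 169 to 329 counts in every library. Among the other pigment cell markers, TYR, MLANA, SOX10 and S100B had at most 1 count in any library, and DCT had 0. TYRP1 had 0 in the 3 CMM2 libraries and 43, 47 and 62 counts in the CMM12 control, KO 1 and KO 2. PAX3 had 0, 0 and 6 counts in CMM2 and 43, 92 and 48 in CMM12 in that order. PMEL had 7, 5 and 8 counts in CMM2 and 12, 7 and 27 in CMM12. The leukocyte genes PTPRC, CD3E, CD4 and CD8A had 0 counts in every library, while the row named CD79A held 748 to 1209 CPM throughout.

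PDPN (ENSCAFG00000016363) was low in all 4 knockout libraries. The CMM2 control had 20.2 CPM of PDPN, KO 1 had 5.58 and KO 2 had 5.57. The CMM12 libraries had 87.9, 15.2 and 9.99 CPM in the same order. Each knockout library lay below its own control, and in each parent KO 2 did not lie above KO 1. The ratio of KO 2 to KO 1 in CMM2 was 1.0 (95% counting interval 0.692 to 1.45). In CMM12 the level in KO 2 was 1.52-fold lower than in KO 1 (1.18 to 1.97), a log2 difference of -0.61. The 40 nearest expressed genes had a median log2 difference of -0.36 there. All such intervals are exact binomial ones and cover counting error only. Across both parents edgeR's quasi-likelihood test gave PDPN a log2 difference of -0.31 (SE 0.40) with an adjusted p of 0.976. Of 15 genes in the list of podoplanin and its partners, PDPN itself among them, 12 were tested and 0 were called by edgeR or DESeq2. Moesin (MSN), which ties podoplanin to actin, stood at 346 and 601 CPM in KO 1 and KO 2 of CMM2 and at 447 and 395 in CMM12. Its log2 difference in CMM2 was 0.8, and 0.17 with the neighbours' median of 0.62 subtracted. The membrane protease MMP14 differed in opposite directions, at 483 and 938 CPM in CMM2 and at 555 and 316 in CMM12. The tetraspanin CD9 stood at 369 and 344 CPM in CMM2 and at 234 and 420 in CMM12. Ezrin (EZR) stood at 1322 and 1159 CPM in CMM2 and at 1098 and 1116 in CMM12.

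Across both parents, with the parental line as a block, the genes that stood apart between KO 2 and KO 1 included 6 collagens, the collagen chaperone SERPINH1 and the protease inhibitor TIMP1, all higher in KO 2, and smooth muscle actin (ACTA2), lower in KO 2. The tests differed in what they called. edgeR's quasi-likelihood test, the main test, called 0 of 12133 genes (0%) at an adjusted p under 0.05. Its smallest adjusted p was 0.0898, shared by IL33 and SERPINB10. The IL33 row had 0 counts in every CMM2 library, so its value rests on CMM12. By the same test 627 of the 12133 genes had an unadjusted p under 0.05, 429 higher and 198 lower in KO 2. A limit of 0.05 gives a count near this even where no gene differs. With 4 libraries this fit keeps 1 residual degree of freedom. DESeq2's Wald test called 38 of 11192 genes, 31 higher in KO 2 (0.277%) and 7 lower (0.0625%). All 38 were among the 627, but both tests used the same 4 libraries. Of the 38, 27 differed at least 2-fold in both parents, which a fit across both parents selects for. The 4 matrix lists held 9 of the 38. Their tested members numbered 15 (collagens), 22 (collagen processing), 28 (glycoproteins and proteoglycans) and 22 (proteases and inhibitors). These lists were chosen with earlier results of these data known, so the 9 is a description. The differences named in the next paragraphs as called are DESeq2 calls that the main test did not make. In an edgeR fit over all libraries but KO 2 of CMM12, 58 genes were called, 11 of them among the 38, and leaving out any other knockout library gave 0 or 1.

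Collagens made up 6 of the 31 genes that DESeq2 called higher in KO 2. COL6A3, a chain of type VI collagen, stood at 110 CPM in the CMM2 control, 165 in KO 1 and 539 in KO 2. In CMM12 the values were 341, 18.3 and 91.6 CPM in that order. KO 2 lay above KO 1 in both parents, by 3.28-fold and 5.0-fold, with the control below both in CMM2 and above both in CMM12. The DESeq2 log2 difference was 2.01 (SE 0.27, adjusted p 2.5e-09). COL15A1, a collagen of the basement membrane zone, stood at 51.5, 51.3 and 387 CPM in CMM2 and at 312, 116 and 263 in CMM12. In CMM2 it was KO 2 that lay apart from the control, and in CMM12 it was mainly KO 1. Its DESeq2 log2 difference was 2.05 (SE 0.38, adjusted p 9.2e-05). COL5A1, a chain of the fibril-forming type V collagen, stood at 121, 215 and 451 CPM in CMM2 and at 537, 179 and 421 in CMM12. That was a 2.09-fold and a 2.35-fold difference. COL4A1, a basement membrane chain, stood at 370, 483 and 859 CPM in CMM2 and at 212, 28.7 and 121 in CMM12. COL1A2, a type I chain, stood at 156, 869 and 3890 CPM in CMM2 and at 5296, 2878 and 4210 in CMM12. For COL1A2 the CMM12 gap was 1.46-fold, against 4.48-fold in CMM2. COL14A1, a fibril-associated collagen, had 7.41 and 31.5 CPM in KO 1 and KO 2 of CMM2 and 161 and 270 in CMM12.

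A collagen chaperone, a protease inhibitor, an integrin chain and 2 secreted matrix proteins were also called higher in KO 2. SERPINH1, the collagen chaperone, stood at 823, 973 and 1793 CPM in the CMM2 control, KO 1 and KO 2 and at 2109, 981 and 1965 in CMM12. Its DESeq2 log2 difference was 0.94 (SE 0.20, adjusted p 0.0016). The neighbours of SERPINH1 in CMM12 had a median log2 difference of 0.42 themselves. TIMP1, an inhibitor of matrix metalloproteases, stood at 232, 282 and 1270 CPM in CMM2 and at 467, 1117 and 1858 in CMM12. The folds were 4.51 and 1.66, and the neighbours of TIMP1 in CMM2 had a median log2 difference of 0.59 themselves. ITGB3, an integrin chain that binds vitronectin and fibronectin, stood at 183, 148 and 471 CPM in CMM2 and at 190, 108 and 214 in CMM12. SPON1, a secreted adhesion protein, had 0 counts in KO 1 and 168 in KO 2 of CMM2, and 1 and 135 in CMM12. The difference was at least 60.7-fold in CMM2, taking 3 counts as the limit for a count of 0, and 145-fold in CMM12 (95% counting interval 25.6 to 5770). CCDC80, a secreted matrix-binding protein, stood at 11.2, 14.6 and 73.2 CPM in CMM2 and at 58.5, 0.820 and 5.19 in CMM12. Without KO 2 of CMM2, a fit over the other 5 libraries turned its direction, to a log2 difference of -0.34.

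The other genes called higher in KO 2 were spread over signalling, retinoid handling and protease inhibition. SERPINB10, an intracellular protease inhibitor, had 3 and 203 counts in KO 1 and KO 2 of CMM2 and 2 and 138 in CMM12. The folds were 73.3 (95% counting interval 24.7 to 358) and 74.2 (20.1 to 618), while the CMM12 control, at 17.0 CPM, lay near KO 2 and the CMM2 control, at 0.573 CPM, near KO 1. SERPINB8, of the same family, stood at 6.78, 8.81 and 49.9 CPM in CMM2 and at 64.9, 0.273 and 11.5 in CMM12. RAP1GAP2, which switches off the small GTPase Rap1, stood at 12.6, 9.94 and 196 CPM in CMM2 and at 23.4, 8.29 and 33.2 in CMM12. The folds were 19.7 and 4.0 (DESeq2 log2 difference 3.16, SE 0.51, adjusted p 3.5e-06). CRABP2, which carries retinoic acid to the nucleus, stood at 0.859, 0.785 and 13.1 CPM in CMM2 and at 56.8, 6.56 and 55.2 in CMM12. In CMM2 KO 1 lay at the control, and in CMM12 it was KO 2 that lay there. PLXNA2, a semaphorin receptor, stood at 5.25, 5.76 and 60.5 CPM in CMM2 and at 0.951, 0.911 and 7.15 in CMM12. For PLXNA2 the control lay beside KO 1 in both parents. GUCY1B1, a subunit of the nitric oxide receptor guanylate cyclase, stood at 12.3, 19.7 and 104 CPM in CMM2 and at 19.5, 3.92 and 17.0 in CMM12. WNT5B, a Wnt ligand, had 19.9 and 72.6 CPM in KO 1 and KO 2 of CMM2 and 34.2 and 81.1 in CMM12. TCF7, a transcription factor of the Wnt pathway, had 0.959 and 32.1 CPM in CMM2 and 9.02 and 24.5 in CMM12. The others with a symbol were EFNB1, an ephrin ligand, UNC5B, a netrin receptor, FRAS1, a basement membrane protein, S100A8, a calcium-binding alarmin, PDE3B, a phosphodiesterase, MAGED2, COPZ2, ANKRD50, TBC1D30 and FAM184B. EFNB1 stood at 33.4 and 165 CPM in KO 1 and KO 2 of CMM2 and at 20.6 and 37.4 in CMM12, and its neighbours in CMM2 had a median log2 difference of 0.65.

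The 7 genes that DESeq2 called lower in KO 2 included a contractile protein and a redox enzyme. ACTA2, smooth muscle actin, stood at 1.72 CPM in the CMM2 control, 5.67 in KO 1 and 0.944 in KO 2, and at 9.17, 108 and 4.02 in CMM12. KO 1 was the highest library in each parent, by 6.0-fold and 26.8-fold over KO 2. The DESeq2 log2 difference was -3.81 (SE 0.63, adjusted p 3.7e-06). PRDX6, a peroxide-reducing enzyme, stood at 615, 438 and 196 CPM in CMM2 and at 413, 907 and 399 in CMM12. The gap was nearly the same in both parents, 2.24-fold and 2.27-fold, but KO 2 lay below the control in CMM2 and close to it in CMM12. CHSY3, which builds chondroitin sulfate chains, stood at 5.54, 8.11 and 0.472 CPM in CMM2 and at 17.7, 30.9 and 3.23 in CMM12. KCNK10, a potassium leak channel, stood at 65.5, 50.7 and 16.7 CPM in CMM2 and at 6.05, 24.2 and 1.37 in CMM12. Both had their lowest level in KO 2 of each parent. MARK1, a microtubule-regulating kinase, had 73.5 and 29.1 CPM in KO 1 and KO 2 of CMM2 and 271 and 137 in CMM12. LEPR, the leptin receptor, was carried by CMM12, where it stood at 134, 104 and 16.7 CPM, since no CMM2 library reached 1 CPM. TDRD12, a protein of the germline piRNA pathway, had 165 counts in KO 1 and 0 in KO 2 of CMM2, at least 50.8-fold lower, and 4 and 0 counts in CMM12. The plot of levels by library shows the separation of KO 1 and KO 2 and the differing place of the controls.

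**Figure D1:**
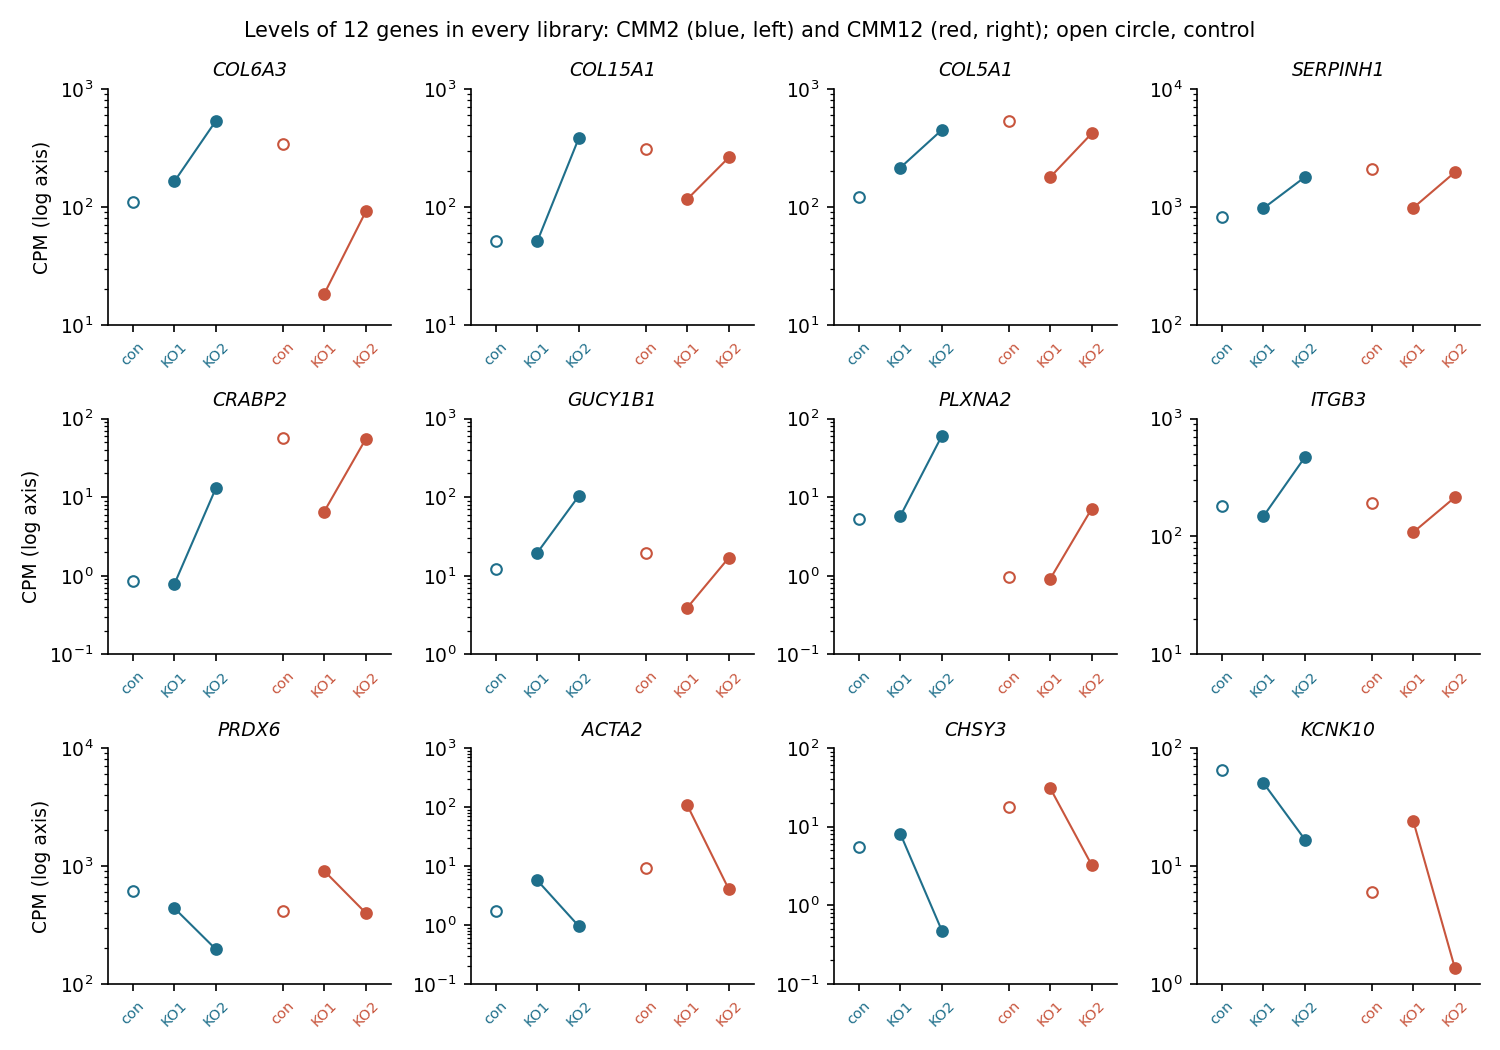
Levels of genes called by DESeq2 in each library, on a log axis of CPM with 1 point per library (open for controls), for CMM2 (blue) and CMM12 (red); lines join KO 1 and KO 2. KO 2 lies above KO 1 in both lines for genes such as COL6A3 (165 and 539 CPM in CMM2, 18.3 and 91.6 in CMM12) and below it for ACTA2 (5.67 and 0.944, 108 and 4.02).

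Where the controls lay differed between the parents for these calls. Among the 31 genes called higher by DESeq2, KO 2 of CMM2 lay at least 1.5-fold above its control for 30, and for 18 of them KO 1 was not that far from it. The median log2 distance from the CMM2 control was 0.21 for KO 1 and 2.53 for KO 2. In CMM12, KO 1 lay at least 1.5-fold below its control for 25 of the 31, and for 16 of the 31 only KO 1 was that far away. The medians there were -1.50 for KO 1 and -0.05 for KO 2. The library standing alone apart from the control was thus more often KO 2 in CMM2 and KO 1 in CMM12. The shared direction between the knockout lines is set by the test, which is fitted across both parents. KO 1 and KO 2 of a parent share its control library, and these distances are descriptions. Of the 7 genes called lower, only KO 2 was that far from the control for 5 in CMM2, and KO 1 lay at least 1.5-fold above the control for 5 in CMM12.

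Within CMM2, KO 2 was at least 2-fold higher than KO 1 for 267 of 8443 genes with a mean of at least 10 CPM (3.16%) and at least 2-fold lower for 110 (1.3%). Each side is 1 library, so there was no replicate check. The median absolute difference was 1.2-fold and 90% of genes lay within 1.65-fold. At least 8-fold differences were seen for 18 genes higher and 8 lower in KO 2. NLRP3, the sensor of an inflammasome, had 4 counts in KO 1 and 1042 in KO 2, a 282-fold difference (95% counting interval 110 to 1040), and 2 counts in the control. PAPPA, a protease that frees insulin-like growth factors, stood at 0.859, 1.92 and 132 CPM in the control, KO 1 and KO 2. FAM20A, a pseudokinase that supports the secretory kinase FAM20C, had 0 counts in KO 1 and stood at 38.4 CPM in KO 2, at least 147-fold higher. All 3 were low in the control and in KO 1 alike. SLC4A4, a bicarbonate transporter, stood at 0.191, 0.959 and 31.0 CPM, and SULF2, which trims heparan sulfate, at 6.01, 1.92 and 52.7. FGFR2, a growth factor receptor, stood at 4.20, 3.14 and 33.7 CPM. The Notch ligand JAG1 stood at 21.8, 20.1 and 425 CPM, and at 575, 52.8 and 206 in CMM12, where KO 2 was also above KO 1. COL3A1, a fibrillar collagen, stood at 226, 627 and 4918 CPM, so that KO 1 lay between the control and KO 2.

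Several genes had few or no reads in KO 2 of CMM2. The adhesion molecule L1CAM stood at 32.4 CPM in the control, 48.6 in KO 1 and 0 in KO 2, at least 171-fold lower, although its neighbours had a median log2 difference of 0.52. The amino acid transporter SLC38A1 stood at 30.3, 25.7 and 0 CPM, at least 90.8-fold lower in KO 2. The peptidase ANPEP stood at 4.87, 20.7 and 0 CPM, at least 72.9-fold lower. For these 3 genes KO 2 was the only CMM2 library without reads. GNGT2, a G protein gamma subunit, stood at 69.8, 85.2 and 1.61 CPM, a 53.1-fold difference. The adhesion receptor ADGRG6 stood at 22.4, 23.9 and 0.944 CPM, the water channel AQP1 at 12.2, 19.5 and 1.61, and the carbonic anhydrase CA4 at 27.0, 26.3 and 2.36. NFATC1, a calcium-regulated transcription factor, stood at 35.6, 40.3 and 5.19 CPM. SCN2B, a sodium channel subunit, stood at 71.0, 62.9 and 12.7 CPM, and NLRP1, an inflammasome sensor, at 30.5, 51.8 and 10.6. KO 2 was the lowest library for each of these.

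Within CMM12, KO 2 was at least 2-fold higher than KO 1 for 200 of 8646 genes (2.31%) and at least 2-fold lower for 108 (1.25%). The share of higher among all 2-fold differences was 64.9%. By the ratio of the deposited TPM it was 81.2% of 362 genes. By that ratio the median of all genes lay at 0.13 on the log2 scale, and its part in the share was not tested. In CMM2 the shares were 70.8% and 72.7%. The median absolute difference in CMM12 was 1.18-fold and 90% of genes lay within 1.63-fold. FBLN2, a matrix protein that binds elastic fibres, stood at 44.4, 1.82 and 92.7 CPM in the control, KO 1 and KO 2, a 50.8-fold difference. THBS3, a thrombospondin, stood at 50.8, 2.01 and 58.8 CPM, and TGFBI, a secreted adhesion protein, at 26.4, 2.83 and 66.0. KO 1 was the low library for all 3, with the control nearer to KO 2. COL1A1, the other chain of type I collagen, stood at 681, 5.56 and 73.5 CPM, a 13.2-fold difference, against 1007, 1686 and 2215 CPM in CMM2. INSC, a protein of spindle orientation, stood at 2.59, 0.365 and 33.1 CPM, and TBX3, a transcription factor, at 1.21, 0.365 and 26.5. AEBP1, a collagen-binding protein, stood at 52.8, 23.2 and 215 CPM. For INSC, TBX3 and AEBP1 it was KO 2 that lay farther from the control.

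Among genes with a mean of at least 10 CPM in CMM12, the lowest ratio of KO 2 to KO 1 was that of IL33, an alarmin of the interleukin-1 family. It had 1288 counts in KO 1 and 1 in KO 2, a 1200-fold difference (95% counting interval 215 to 47400), and it stood at 4.50 CPM in the control. The IL33 row had 0 counts in every CMM2 library. MAN1A1, which trims N-glycans, stood at 21.7, 126 and 31.1 CPM in the control, KO 1 and KO 2, and FST, an activin antagonist, at 3.81, 29.0 and 7.54. The phosphatase PTPRK stood at 9.94, 90.5 and 30.8 CPM. KO 1 was the high library for these 3, and KO 2 lay between it and the control. TAGLN, an actin-binding protein of smooth muscle, stood at 33.6, 204 and 67.7 CPM, and the calponin CNN2 at 102, 196 and 67.8. SERPINF1, an anti-angiogenic serpin, stood at 61.4, 42.2 and 10.2 CPM, so that KO 2 was the library apart.

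In both parents the share of genes at least 2-fold apart was higher among low genes. In CMM2 it was 7.42% at 10 to 30 CPM, 3.45% at 30 to 100 CPM and 2.81% at 100 CPM or more. The same shares in CMM12 were 5.99%, 2.95% and 1.67%. Over all levels they were 4.47% in CMM2 and 3.56% in CMM12.

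The difference between KO 2 and KO 1 in CMM2 was nearly unrelated, gene by gene, to that in CMM12. Over 8064 genes with a mean of at least 10 CPM in each parent, Pearson's r was 0.049 and Spearman's rho 0.046, and 51.8% had the same sign. These comparisons share no library, but genes are not independent replicates, so the values are descriptions. At least 2-fold differences in both parents were shared by 52 genes, which is 16.4% of the 317 in CMM2 and 25.4% of the 205 in CMM12. Over the same 8064 genes, 205 were that far apart in CMM12 and 317 in CMM2. The overlap lay above these shares and was not tested. Of the 52, 23 were higher in both, 6 lower in both and 23 opposite. The 23 higher in both were 10.2% of the CMM2 genes that were higher and 17.7% of those in CMM12, and the 6 lower in both were 6.59% and 8.0%. Over the same 8064 genes, 130 were at least 2-fold higher and 75 lower in KO 2 of CMM12. In CMM2 226 were higher and 91 lower. The scatter of the differences in both parents shows a round cloud with few genes in the corners.

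**Figure D2:**
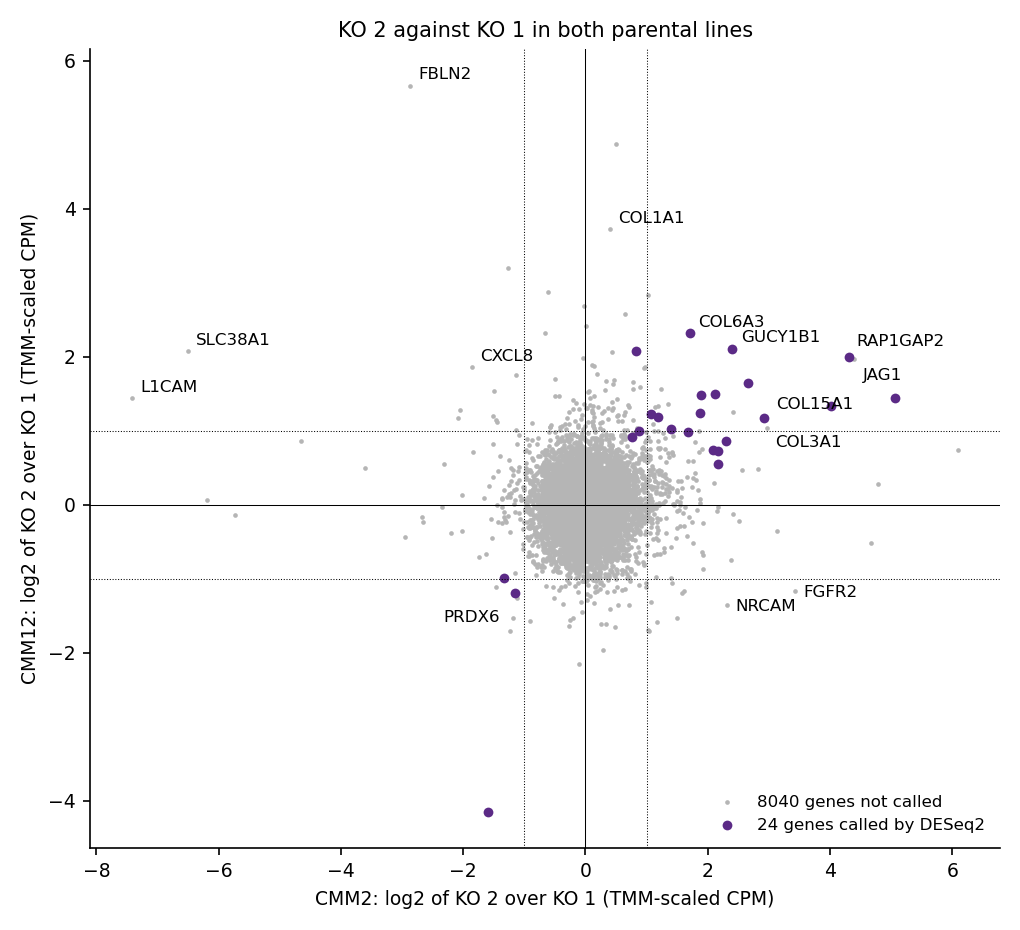
Log2 difference of KO 2 from KO 1 in CMM2 (horizontal) against the same in CMM12 (vertical) for 8064 genes, 1 point per gene, with the 24 of them that DESeq2 called in colour and the other 8040 in grey. The cloud has a Pearson's r of 0.049, and 23 genes are past 2-fold in opposite directions.

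The genes with opposite differences included adhesion and inflammation genes. L1CAM, absent from KO 2 of CMM2, stood at 38.1, 65.3 and 178 CPM in the CMM12 control, KO 1 and KO 2, 2.73-fold higher in KO 2. SLC38A1 stood at 102, 23.8 and 101 CPM in CMM12, 4.24-fold higher in KO 2, and FBLN2 stood at 13.1, 17.9 and 2.46 CPM in CMM2, 7.28-fold lower. For these 3 genes KO 2 was the lowest library of CMM2, whereas in CMM12 it was above KO 1. CXCL8, the neutrophil-attracting chemokine, stood at 52.0, 19.4 and 5.38 CPM in CMM2 and at 12.2, 28.9 and 105 in CMM12. NRCAM, a relative of L1CAM, went the other way, at 29.7, 15.5 and 77.1 CPM in CMM2 and 29.1, 63.1 and 24.8 in CMM12. DAAM1, a formin of the planar Wnt pathway, stood at 11.8, 13.4 and 38.1 CPM in CMM2 and at 19.3, 24.2 and 8.42 in CMM12. ARHGDIB stood at 13.7, 18.7 and 6.61 CPM in CMM2 and at 15.2, 8.29 and 24.2 in CMM12. UCP2, a mitochondrial carrier, stood at 24.8, 31.0 and 7.46 CPM in CMM2 and at 41.7, 39.6 and 96.6 in CMM12. FGFR2, 10.7-fold higher in KO 2 of CMM2, stood at 25.1 and 11.2 CPM in KO 1 and KO 2 of CMM12, 2.24-fold lower. AEBP1, 9.24-fold higher in KO 2 of CMM12, stood at 40.4 and 16.8 CPM in CMM2, 2.4-fold lower.

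Which knockout line lay away from the control differed between the parents over all 2-fold differences too. In CMM2 only KO 2 was at least 1.5-fold from the control for 286 of 377 genes (75.9%), and only KO 1 for 21 (5.57%). A further 43 had both knockout lines on the same side of the control, 24 had them on opposite sides, and 3 had neither that far away. In CMM12 the counts were more even, with only KO 2 away for 101 of 308 genes (32.8%) and only KO 1 for 105 (34.1%). There, 52 had both on the same side, 41 had them on opposite sides and 9 had neither away. Among genes higher in KO 2, only KO 2 was away for 207 of 267 in CMM2 and for 54 of 200 in CMM12, where only KO 1 was away for 73. GNGT2 and SCN2B in CMM2 were examples with only KO 2 away, and FBLN2, THBS3 and COL1A1 in CMM12 had KO 1 farther from the control. The difference between the parents was not tested, since each has 1 control library.

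**Figure D3:**
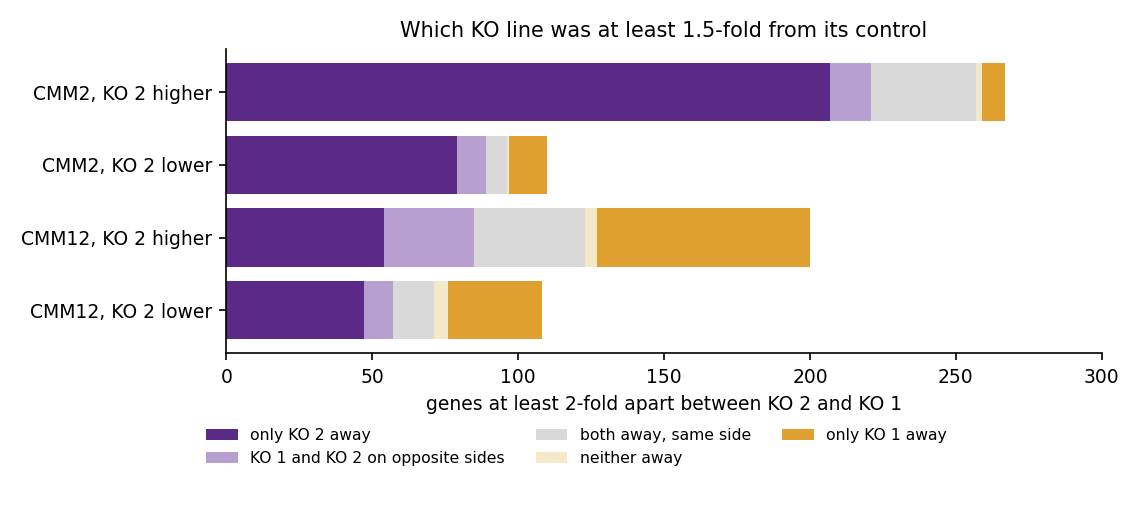
Number of genes at least 2-fold apart between KO 2 and KO 1 in each parental line, split by which knockout line was at least 1.5-fold from the control, for genes higher and lower in KO 2. In CMM2 only KO 2 is away for 286 of 377 genes, while in CMM12 the split is 101 for KO 2 and 105 for KO 1 of 308.

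A small group of genes was read at 10 CPM or more in one knockout line and at 3 counts or fewer in the other. In CMM2 8 such genes were present in KO 1 and not KO 2: L1CAM, SLC38A1, ANPEP, ASAH1, DSCAML1, FARP1, TDRD12 and ABI3. The acid ceramidase ASAH1 had 222 counts in KO 1 and 2 in KO 2, and the adhesion molecule DSCAML1 had 186 and 0. FARP1, which links the membrane to the cytoskeleton, had 175 and 1 counts, and ABI3, an actin regulator, had 120 and 1. All 8 were read in the CMM2 control too, with 51 (ANPEP) to 339 (L1CAM) counts. The 5 present in KO 2 of CMM2 and not KO 1 were FAM20A, SERPINB10, SPON1, PDZD2 and the unnamed ENSCAFG00000041393. The control had 3 and 2 counts of FAM20A and PDZD2 and 6 to 16 counts of the other 3. In CMM12 IL33 and the synaptic adhesion protein NLGN1 (114 and 0 counts) were present in KO 1 and not KO 2, with 52 and 90 counts in the control. SERPINB10, SPON1, SERPINB8 and FXYD6, a regulator of the sodium pump (2 and 135 counts), were present in KO 2 of CMM12 and not KO 1. The CMM12 control had 41 (FXYD6) to 751 (SERPINB8) counts of these 4. SERPINB10 and SPON1 were thus in this group in both parents and in the same direction.

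The gene lists describe how broad families differed. Over all 10671 tested genes with a symbol, 590 had an unadjusted p under 0.05 by edgeR, and DESeq2 called 29 higher and 7 lower. Their median log2 difference was -0.01 in CMM2 and 0.00 in CMM12. Of 20 collagen genes 15 were tested, 12 had an unadjusted p under 0.05 and 6 were called higher by DESeq2. Among those with a mean of at least 10 CPM, 11 of 12 were higher in KO 2 of CMM2 and 11 of 13 in CMM12, with medians of 1.28 and 1.03. With the median of the 40 nearest genes subtracted, the medians were 1.09 and 0.91. In CMM2 the collagen median against the control was 0.48 for KO 1 and 1.93 for KO 2, and in CMM12 it was -1.59 and -0.89. The collagen median was thus highest in KO 2 within CMM2 and lowest in KO 1 within CMM12. Of 8 fibroblast and pericyte markers 7 were tested. They summed to 1230, 2640 and 6230 CPM in the CMM2 control, KO 1 and KO 2 and to 6030, 2940 and 4360 in CMM12. Nearly all of that was COL1A1 and COL1A2. RGS5 was at 0 throughout, FAP had at most 14 counts, and decorin (DCN) had 0, 0 and 2 counts in CMM2 and 45, 98 and 0 in CMM12. LUM had 0, 1 and 11 counts in CMM2 and 196, 5 and 0 in CMM12. PDGFRB had 21, 23 and 52 counts in CMM2 and 36, 65 and 107 in CMM12. The receptor PDGFRA, which marks fibroblasts, had 672, 935 and 1257 counts in CMM2 and 346, 400 and 622 in CMM12. The part of such cells in the result was not tested. In bulk RNA, more cells of a type and more RNA per cell cannot be told apart.

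Other matrix lists were higher in KO 2 by less. Over all genes DESeq2 called 0.277% higher and 0.0625% lower, beside which the calls below can be set. All 22 collagen processing genes were tested and SERPINH1 was called by DESeq2. Of those with a mean of at least 10 CPM, 17 of 20 were higher in CMM2 and 13 of 19 in CMM12, with medians of 0.36 and 0.27. Of 28 tested matrix glycoproteins and proteoglycans FRAS1 was called, and the medians were 0.48 and 0.25. SPARC, a collagen-binding glycoprotein, stood at 132, 147 and 527 CPM in the CMM2 control, KO 1 and KO 2 but at 372, 201 and 230 in CMM12. TNC, the large matrix protein tenascin-C, stood at 13.1, 27.1 and 106 CPM in CMM12 and was at or near 0 in CMM2. The 22 tested matrix proteases and inhibitors had medians of 0.81 and 0.35, with TIMP1 called. Of 15 tested integrins ITGB3 was called, and the medians were 0.44 and 0.17. The laminin receptor chain ITGA6 stood at 174 and 241 CPM in KO 1 and KO 2 of CMM2 and at 78.1 and 252 in CMM12. The proteoglycan CSPG4, a melanoma surface antigen, stood at 481 and 470 CPM in CMM2 and at 89.0 and 230 in CMM12. Contractile genes leaned the other way, most of all in CMM12, where 17 of 23 were lower in KO 2 with a median of -0.37. The CMM2 median was -0.11, with 7 of 20 higher and 13 lower. ACTA2 was the contractile gene called lower, while TAGLN stood at 53.7 and 121 CPM in KO 1 and KO 2 of CMM2, 2.25-fold higher in KO 2 and opposite to CMM12.

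For the signalling and cell state lists, calls can be set beside those over all 11192 genes with a DESeq2 adjusted p. DESeq2 called 0.277% of these higher in KO 2 and 0.0625% lower. These lists were chosen with earlier results of these data known, so the counts below are descriptions. Of 29 tested Wnt genes DESeq2 called 2, WNT5B and TCF7, both higher, and the medians were 0.07 in CMM2 and 0.73 in CMM12. The guidance list had 3 of 33 called higher, PLXNA2, UNC5B and EFNB1. NRP1, a semaphorin co-receptor, stood at 37.2 and 166 CPM in KO 1 and KO 2 of CMM2 and at 41.5 and 39.2 in CMM12. Hypoxia genes of at least 10 CPM were lower in KO 2 for 20 of 31 in CMM2 and 16 of 32 in CMM12. Their CMM2 median was -0.22. NDRG1, of this list, went the other way, at 27.6 and 95.01 CPM in CMM2 and at 82.6 and 149 in CMM12. The angiogenic factor VEGFA stood at 134 and 298 CPM in CMM2 and at 472 and 240 in CMM12, in opposite directions. EGR1, an immediate early transcription factor, stood at 6.8 and 10.9 CPM in CMM2 and at 17.2 and 53.4 in CMM12. EREG, an epidermal growth factor receptor ligand, stood at 30.7 and 41.9 CPM in CMM2 and at 68.2 and 212 in CMM12. The melanosomal glycoprotein GPNMB stood at 82.8 and 246 CPM in CMM2 and at 270 and 119 in CMM12. None of NRP1, NDRG1, VEGFA, EGR1, EREG and GPNMB was called by edgeR or DESeq2.

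Growth lists were slightly lower in KO 2. Of 42 tested DNA replication genes 0 were called by edgeR or DESeq2 and 4 had an unadjusted p under 0.05 by edgeR. In CMM2, 38 of 40 were lower in KO 2, with a median of -0.45. In CMM12, 27 of 41 were lower with a median of -0.08, which became 0.05 by the deposited TPM. Of 32 ribosomal protein genes with a mean of at least 10 CPM, 24 were lower in CMM2 and 29 in CMM12, with medians of -0.16 and -0.30. Reads of ribosomal genes can be shared with near-identical copies. Cholesterol and fatty acid synthesis genes were slightly higher, with medians of 0.38 and 0.15. INSIG1, which holds back sterol synthesis, stood at 95.1 and 234 CPM in KO 1 and KO 2 of CMM2 and at 23.4 and 39.4 in CMM12. FADS2, a fatty acid desaturase, stood at 270 and 273 CPM in CMM2 and at 15.6 and 83.6 in CMM12. The plot of list medians sets each family beside a line at 0. The lists were chosen with earlier results of these data known, so their medians carry no test.

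**Figure D4:**
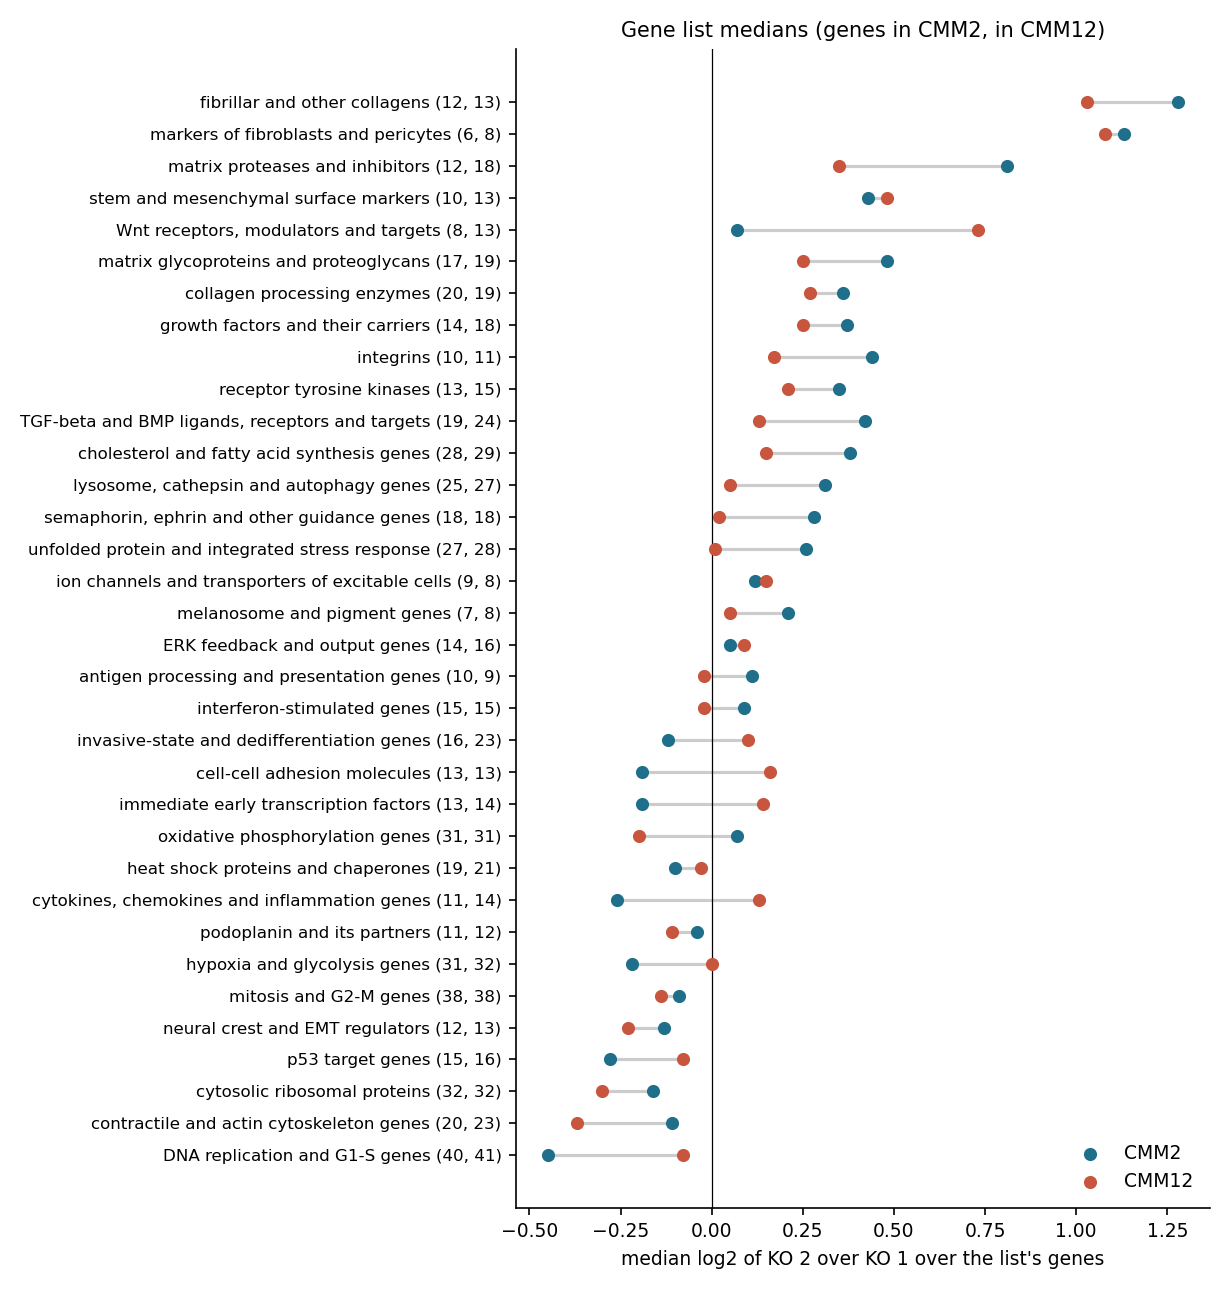
Median log2 difference of KO 2 from KO 1 for each gene list, in CMM2 and in CMM12, with a vertical line at 0. Lists with at least 5 genes in each line are shown; collagens lie at 1.28 and 1.03, beside the overlapping fibroblast list at 1.13 and 1.08, and ribosomal protein genes lie at -0.16 and -0.30.

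Differences between the knockout lines also ran together along the genome. Genes were ordered by the RefSeq annotation of the assembly UU_Cfam_GSD_1.0, which is not the build of the counts and was used only for which genes neighbour each other. It placed 10372 of 10671 genes (97.2%). Across genes, the difference of a gene and the median of its 40 nearest expressed genes had a Pearson's r of 0.393 in CMM2 (7622 genes) and 0.436 in CMM12 (7810 genes). The medians of 39 groups of genes on the same chromosome or scaffold ran from -0.31 to 0.68 in CMM2 and from -0.65 to 0.61 in CMM12. In CMM2 the highest was the X-linked group from GTPBP6 to VAMP7, where 194 of 205 genes were higher in KO 2. KO 1 lay at the control there, with a median of 0.01, and KO 2 at 0.67. The same group had a median of 0.06 in CMM12. In CMM12 the lowest group ran from ZNF654 to PRMT2, where 61 of 68 genes were lower in KO 2. The highest ran from GPD2 to COL5A2, where 67 of 72 were higher, with KO 1 at -0.83 and KO 2 at -0.29 against the control.

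The pattern was also seen over shorter runs. In windows of 20 genes, the CMM2 medians ran from -0.49 (MTSS2 to UTP4) to 0.96 (SEPTIN6 to PHF6, 19 of 20 genes higher in KO 2). In CMM12 they ran from -0.92 (PKIA to NDUFAF6, 19 of 20 lower) to 0.68 (WBP11 to INTS13, 20 of 20 higher). The group medians of CMM2 and CMM12 had a Pearson's r of -0.107 over the 39 groups. With the neighbours' median subtracted, genes past 1.5-fold made up 12% in place of 16.8% in CMM2 and 9.49% in place of 15.6% in CMM12. The genes at least 2-fold apart numbered 277 in place of 346 and 215 in place of 267, over the genes placed. DNA copy number was not measured, and its part in these differences was not tested.

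**Figure D5:**
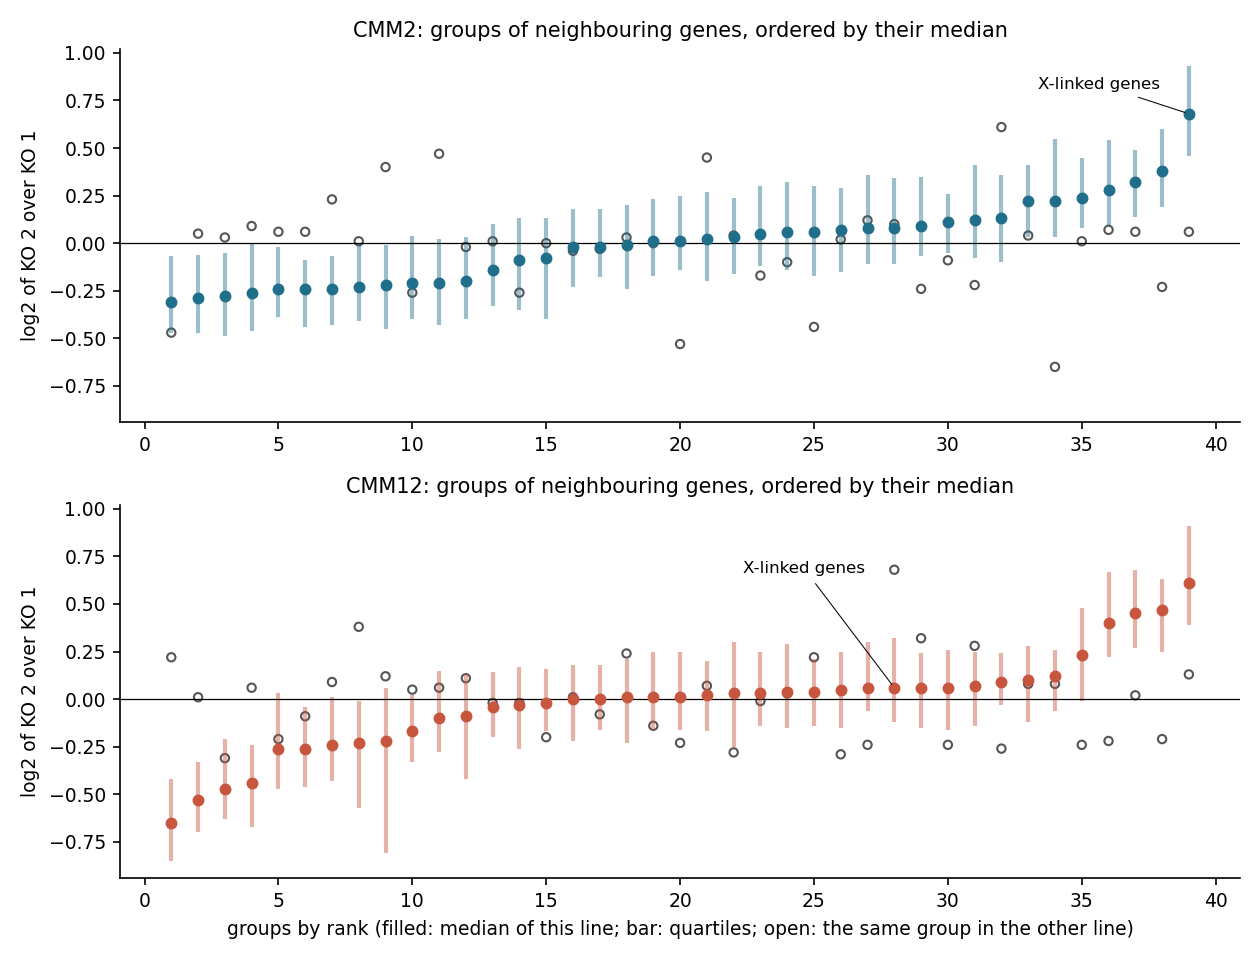
Median log2 difference of KO 2 from KO 1 for each of 39 groups of neighbouring genes (filled points, with quartiles as bars, ordered by median in each line; open circles give the other line). Medians run from -0.31 to 0.68 in CMM2 and from -0.65 to 0.61 in CMM12, and the X-linked group that is highest in CMM2 lies at 0.06 in CMM12.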

How the data were processed

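RNA-seq of 6 libraries was used: control, KO 1 and KO 2 of CMM2 and of CMM12. The authors deposited expected counts, as estimated per gene from the reads, and TPM, per the file headers. The build CanFam3.1 and the tools RSEM 1.3.3 and STAR 2.7.3a come from the submitters' processing notes, which do not say what each did. As to strand, the counting setting was not given in the sources used; a gene cannot be told apart from its antisense partner or a near-identical copy. Values were rounded to whole numbers, which altered 3.22 to 3.63% of them. Rows without a symbol (12940 of 30951) held 7.89 to 8.85% of counts and were kept by identifier.

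KO 2 was compared with KO 1 by edgeR 4.0.16 (R 4.3.3), a quasi-likelihood test with TMM scaling and the parental line as a block, over 12133 genes with at least 10 counts in a knockout library, with Benjamini-Hochberg adjustment. The block rests on the shared parental line: deviations of the knockout libraries from their group means correlated at 0.727 within a line. DESeq2 1.42.0 and limma 3.58.1 on log2(TPM + 1) were alternatives, and 941 genes had no adjusted p in DESeq2. The scripts were tested on simulated data. Within a line, log2 ratios of CPM were used for genes with a mean of at least 10 CPM, taking 3 counts as the floor for a count of 0, with exact (Clopper-Pearson) 95% intervals. The 2 knockout libraries of a line differed by more than counting error alone would give (chi-square divided by its degrees of freedom, 49.7 in CMM2 and 33.5 in CMM12).

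The genes named were PDPN, up to 12 in each direction called by DESeq2, since edgeR called none, and the 12 in each direction with the largest difference shared in both lines. Also named were the 15 in each direction of each line with the largest nearer bound of the interval, 8 opposite genes and up to 4 members of each of 39 gene lists. The members and lists were chosen with earlier results of these data known. The other DESeq2 calls, the genes read in only 1 of the knockout lines of a parent, further list members, and the genes at the ends of neighbour groups were named after their values were seen. The planned summary by chromosome was replaced, after seeing the data, by groups of neighbouring genes, because no annotation of CanFam3.1 was used here. No sequences are printed.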

Additional observations from a re-analysis of the deposited data

Results flagged for a closer look

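In 23 genes KO 2 lay at least 2-fold from KO 1 in opposite directions in CMM2 and CMM12. The 8 given here are those whose smaller difference of the 2 lines was largest. The values are the log2 difference in CMM12 minus that in CMM2, and none was tested, since each line has 1 library a side. For L1CAM it was 8.87, for SLC38A1 8.59 and for FBLN2 8.53. The first 2 had 0 counts in KO 2 of CMM2, so their values rest on the 3-count floor. For CXCL8 it was 3.72, for UCP2 3.34 and for ARHGDIB 3.04. NRCAM at -3.66 and DAAM1 at -3.03 were higher in KO 2 of CMM2 and lower in KO 2 of CMM12.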

How the results depend on the processing

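The count of genes called across lines (0 by edgeR) depended on the test: 38 with DESeq2, 10 with scaling by library size alone, 12 with no filter on low counts and 2 (CRABP2 and SERPINB10) with limma on log2(TPM + 1). The robust, bias-adjusted and 6-library edgeR fits, median-of-ratios size factors, both stricter filters, unrounded counts, log2(TPM + 0.1) and TPM without a filter each called 0. With no replicate block, leaving the parental pairing out, 0 genes were called and 67 had an unadjusted p under 0.05 by edgeR. Leaving out each library in turn, in the 6-library edgeR fit where the lone library is assumed to vary like the others, gave 0 to 58 calls: 58 without KO 2 of CMM12 (41 higher and 17 lower), 1 (IL33) without KO 2 of CMM2, and 0 without either KO 1. In the same fits CCDC80 ran from -0.34 to 4.97 and PDPN from -0.77 to 0.19.

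Genes at least 2-fold apart in CMM2 (377) numbered 946 with a mean of at least 1 CPM, 115 with at least 50 CPM and 223 with the whole counting interval past 2-fold. In CMM12 (308) there were 1025 at the lower minimum, 90 at the higher and 171 by the interval. Those past 2-fold the same way in both lines (29) numbered 113, 9 and 16, and 18 with the neighbours' median subtracted, an alternative chosen after seeing the data. Opposite genes (23) numbered 90, 3 and 11. At a 2-fold limit, only KO 1 was away from the CMM2 control for 7 genes in place of 21. The medians of the DNA replication, p53, podoplanin partner, antigen presentation, interferon and heat shock lists in CMM12 changed from below to above 0 with TPM. The differences by chromosome were not run as written. Depth limits what low genes show: 3 counts are 0.259 to 0.294 CPM.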
